A study of Mus musculus with 12 samples.

Results

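Untreated aged hearts were compared with young hearts on 8 of the 12 arrays of a mouse heart series. The aged group was 4 untreated C57Bl/6 mice of 30 to 32 months, and the young group was 4 untreated C57Bl/6 mice of 6 months, each taken from the labels of age and treatment. The remaining 4 arrays, from mice of 30 to 32 months that drank 3 mM spermidine from month 4, entered the fit only for its estimate of spread, and their values are given beside a few genes. All mice were kept free of specific pathogens on standard chow, in groups of 4 to 5 per cage and in a 12 h light and 12 h dark cycle, per the labels. The labels used here name neither the mice's sex nor the hour, slide or scan of any array. Only sample numbers mark the arrays as separate animals, and a p-value here measures the spread among the arrays as numbered.

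Heart muscle cells make up most of the heart's mass and depend on fatty acid oxidation in mitochondria, while fibroblasts, endothelial cells, mural cells and resident macrophages share the rest of the tissue. The ageing mouse heart is known for stiffening, slower relaxation, and a shift in its macrophages and in inflammatory signalling. A bulk measurement reads all of these cells together, so fewer cells of a type and less RNA per cell cannot be told apart. Levels below are log2 of the quantile-normalized intensity plus 16, and a difference is the aged mean minus the young mean on that scale. A probe counts as called where limma's two-sided p, adjusted by Benjamini-Hochberg over all kept probes, was below 0.05.

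Transcripts of heart muscle were bright in all 8 hearts. The brighter probe for Myh6, the main myosin heavy chain of the mouse heart, lay between 14.04 and 14.26 in aged hearts and between 14.07 and 14.24 in young hearts. Cardiac troponin I (Tnni3) was at 10.64, 10.52, 10.69 and 11.17 in aged hearts, against 11.36, 11.17, 11.28 and 11.36 in young hearts, and did not pass the test (adjusted p = 0.174 in limma). A pair of arrays stood apart. In aged replicate 1 the atrial transcripts Sln and Myl7 were at 9.75 and 8.77, while Sln was at 12.99 to 13.36 and Myl7 at 11.88 to 12.77 in the other 7 hearts. In young replicate 4 the airway transcripts Scgb1a1 and Bpifa1 were at 12.89 and 11.25, and neither passed 4.56 in any other of the 7 hearts. The mean score of 13 adipocyte genes was also highest in young replicate 4, at 1.75, against -0.77 to 0.36 in the other 7 hearts. The part of these arrays in the results was not tested, and the counts without them are given with the calls below.

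Most of the transcriptome differed little between aged and young hearts. Of 20573 kept probes, 69.7% differed by no more than 0.25 on the log2 scale and 93.1% by no more than 0.5, with a median difference of -0.01. The threshold was passed by 164 probes (0.797% of the kept probes), of which 111 were higher (0.54%) and 53 lower (0.258%) in aged hearts. They stood for 90 named genes that rose, 47 named genes that fell and 16 probes unnamed here. The 2 directions differed in size: among the called probes the median difference was 1.05 for the higher and -0.77 for the lower, and 59 of the higher but 9 of the lower exceeded 1. At an unadjusted p below 0.05 the balance was even, since 7.05% of 13708 genes, each taken by its brightest probe, were higher and 7.19% lower. At any size of difference, 6527 of these genes were higher and 7180 lower. Counts by direction within lists, given below, stand beside these shares and were not tested. Likewise, all 4 aged hearts lay above all 4 young hearts for 4.09% of genes and below them for 4.25% (4.06% and 4.01% of probes).

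The calls differed in how far they rested on dim signal and on single hearts. Of the 164, 76 higher and 31 lower probes stood above the background limit on all 8 arrays. A further 21 higher probes stood below it on all young arrays, 12 lower probes stood below it on all aged arrays, and 6 of these were below it in both groups. Every called probe had the same direction in all 8 fits that left out 1 heart, while 35 of the 164 kept their call in all 8. Without aged replicate 4, 559 probes passed in all and 159 of the 164 were among them, against 69, 68 and 82 of the 164 without aged replicates 1, 2 and 3. Without young replicates 1, 2, 3 and 4 the numbers were 41, 46, 42 and 64. Leaving out young replicate 4 and the treated array with airway transcripts left 70 calls in all, and leaving out aged replicate 1 as well left 50. These last 2 settings were chosen after the data had been seen.

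**Figure D1:**
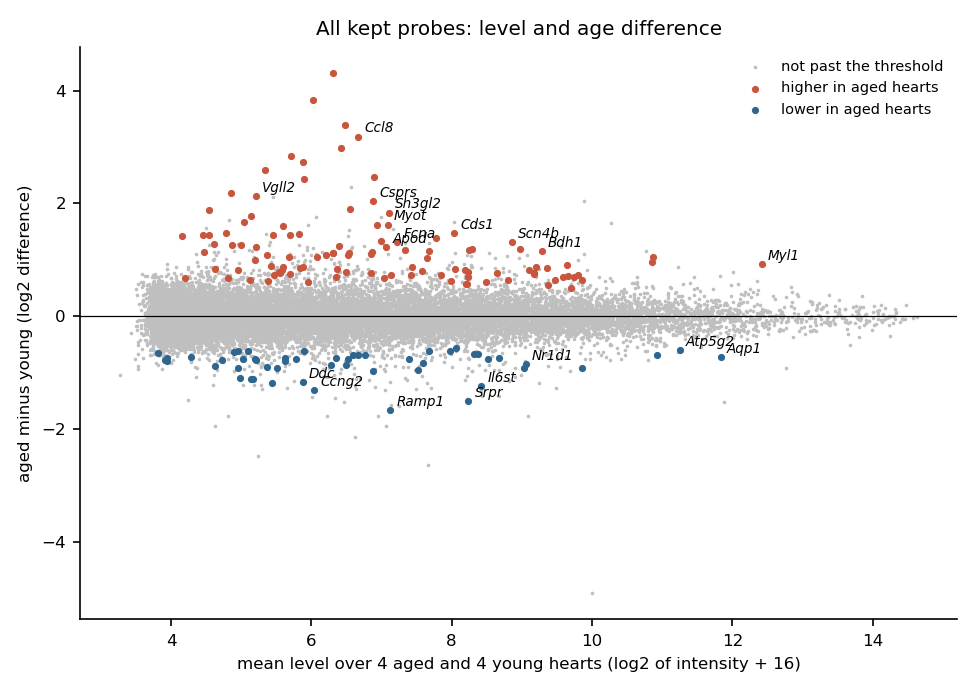
Each point is 1 of the 20573 kept probes, with its mean level over the 8 hearts on the x axis (log2 of intensity plus 16) and the aged minus young difference on the y axis (log2). Red and blue points are the 111 higher and 53 lower called probes, grey points passed no threshold, and the called probes lie mostly at levels from 5 to 9, where red points reach further from 0 than blue ones.

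Aged hearts differed more among themselves than young hearts did. The SD between hearts was higher in the aged group for 66.1% of the kept probes, with a median of 0.245 in aged hearts and 0.181 in young hearts. The 4 spermidine-treated hearts had a median SD of 0.205. Among the 10311 probes above the background limit on all 12 arrays, the SD was higher in the aged group for 74.8%, with medians of 0.218 in aged and 0.135 in young hearts. Each heart was also set against the mean of the other 3 of its group. The median distance was 0.238, 0.202, 0.190 and 0.235 in aged replicates 1 to 4, and 0.131, 0.173, 0.139 and 0.179 in young replicates 1 to 4. Every aged heart lay further from its group than every young heart, and aged replicate 4 lay nearly as far out as aged replicate 1, the heart with low atrial transcripts. The spread is a description without a test, because the distances within a group share arrays. The smallest difference among the called probes was 0.50.

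**Figure D2:**
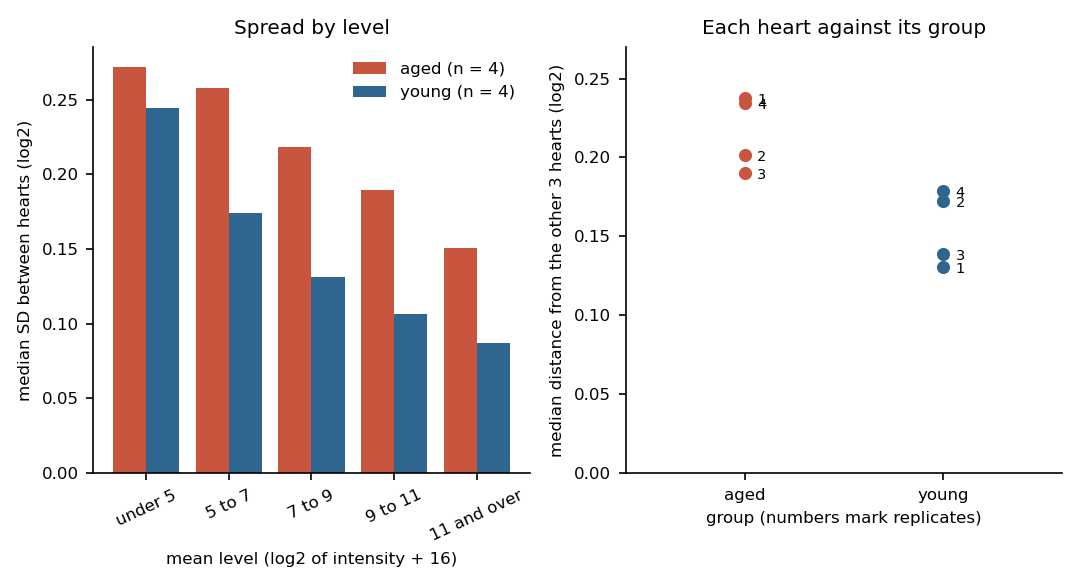
The left bars give the median SD between the 4 hearts of a group (log2) for probes grouped by mean level, with aged hearts in red and young hearts in blue. The right points give each heart's median distance from the mean of the other 3 hearts of its group (log2), and the 4 aged points, at 0.190 to 0.238, all lie above the 4 young points, at 0.131 to 0.179.

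Promoters of the called genes are shown next, since several genes called higher carry the same short element near their start site. A shared cause of their rise was not tested. Of 90 genes that rose, 76 had a RefSeq promoter in the GRCm38.p6 table, and 37 of 47 that fell. The 250 bases before the start site were searched on both strands for the cyclic AMP response element TGACGTCA, which CREB-family factors are known to bind. It occurred in 6 of the 76 genes that rose (7.89%) and in 1 that fell, against 2.5% of 11021 genes with a promoter. The 7 windows below run 5′ to 3′ on the gene's strand, with the element in capitals.
Cds1: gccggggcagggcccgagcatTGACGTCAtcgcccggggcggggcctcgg
Ch25h: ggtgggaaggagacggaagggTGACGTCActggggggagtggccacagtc
Fahd2a: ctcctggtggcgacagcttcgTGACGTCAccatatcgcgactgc
Neurl1a: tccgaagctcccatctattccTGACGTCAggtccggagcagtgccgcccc
Sh3gl2: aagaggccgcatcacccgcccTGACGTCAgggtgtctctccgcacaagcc
Tmem144: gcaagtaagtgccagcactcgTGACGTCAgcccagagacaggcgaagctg
Klc1: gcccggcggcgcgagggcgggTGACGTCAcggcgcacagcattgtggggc
They lie at chr5:101764997-101765046 (plus strand, Cds1), chr19:34475181-34475230 (minus, Ch25h), chr2:127444566-127444609 (minus, Fahd2a), chr19:47178697-47178746 (plus, Neurl1a), chr4:85205398-85205447 (plus, Sh3gl2), chr3:79842725-79842774 (minus, Tmem144) and chr12:111758814-111758863 (plus, Klc1). The element ended 16 bases before the start site in Fahd2a, 26 in Klc1, 30 in Sh3gl2, 54 in Ch25h, 67 in Tmem144, 95 in Neurl1a and 105 in Cds1. Tmem144 has 4 promoters listed, of which 1 is shown. Other elements searched were the E-box CACGTG, in 5 of 76 genes that rose against 8.8% of all, and TTCNNNGAA, the spacing bound by STAT factors, in 6 of 76 against 7.8%. The core TGACNNNGC of the antioxidant response element, which cannot overlap the cyclic AMP response element, occurred in 15 of 76 against 13.2% of all, and in neither Nqo1 nor Srxn1. A match is a run of letters in this window and does not show that a factor was bound.

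The TATA box TATAAA, searched on the gene's strand alone, occurred in 7 of the 76 genes that rose (9.21%) against 7.18% of all. Among these were the chemokines Ccl8 and Ccl12, which are near neighbours on chromosome 11 and were both called higher in aged hearts. Their windows are shown with the TATA box in capitals, to set the promoters of 2 related chemokines beside each other.
Ccl8: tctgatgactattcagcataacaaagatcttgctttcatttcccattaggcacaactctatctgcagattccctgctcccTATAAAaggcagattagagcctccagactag
Ccl12: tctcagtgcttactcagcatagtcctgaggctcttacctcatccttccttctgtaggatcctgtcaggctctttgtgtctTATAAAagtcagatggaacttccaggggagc
In GRCm38.p6 they lie at chr11:82115073-82115183 and chr11:82101734-82101844, both on the plus strand, and the box ended 27 and 26 bases before the start site. Ccl8 was at 7.76, 8.61, 8.18 and 8.48 in aged hearts, against 4.88, 4.98, 5.49 and 4.95 in young hearts. Ccl12 was at 6.94, 6.41, 6.97 and 6.69 in aged hearts, against 5.86, 5.75, 6.09 and 4.99 in young hearts. Neither gene's groups overlapped. The difference was 3.18 for Ccl8 (adjusted p = 0.000128 in limma) and 1.08 for Ccl12 (adjusted p = 0.0325), and both of Ccl12's probes were called. Ccl8 passed without any 1 heart, while Ccl12 was lost without aged replicates 1 or 3 or young replicates 1 or 2, and its neighbour Ccl7 without aged replicate 1 or any 1 young replicate.

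Among muscle genes the calls were a skeletal light chain, a Z-disc protein, membrane proteins, calcium-related proteins and a transcription cofactor. All of those named here were higher in aged hearts on the called probe. Myl1, an essential myosin light chain of fast skeletal muscle, was at 12.68, 13.03, 12.63 and 13.17 in aged hearts, against 11.88, 11.65, 11.98 and 12.33 in young hearts. All 4 aged hearts lay above the young ones, and Myl1 rose 1.89-fold (log2 difference 0.92, SE 0.17, adjusted p = 0.0260 in limma). Myot, encoding the Z-disc protein myotilin, was at 8.66, 7.96, 7.76 and 7.23 in aged hearts, against 6.04, 6.54, 6.43 and 6.10 in young hearts. Its groups did not overlap either, and it rose 3.08-fold (log2 difference 1.62, SE 0.24, adjusted p = 0.00702). A second probe for Myot, below the background limit in all 8 hearts, differed by -0.07. Lrtm1, a leucine-rich membrane protein, was at 11.22, 11.60, 11.16 and 11.35 in aged hearts, against 10.48, 10.20, 10.32 and 10.48 in young hearts, with 0.96 on 1 called probe and 0.91 on the other. Vgll2, a muscle cofactor of TEAD factors, was at 7.20, 5.77, 6.17 and 5.97 in aged hearts and below the background limit in all young hearts, at least 2.59-fold higher (adjusted p = 0.00205). Of its other 2 probes 1 was called, and their differences were 0.57 and 1.67.

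Popdc3, a membrane protein of striated muscle that binds cyclic AMP, rose by 0.56 (adjusted p = 0.0297), and Rcan2, an inhibitor of calcineurin, by 0.73 (adjusted p = 0.0329). The other 2 probes of Rcan2 were both brighter, had overlapping groups and were not called. The brightest, with means of 11.54 in aged and 11.77 in young hearts, differed by -0.24, and the other by 0.26 (adjusted p = 0.543 and 0.516 in limma). Calr3, a calreticulin, was at 8.39, 9.19, 8.57 and 7.71 in aged hearts, against 7.0, 7.45, 6.97 and 6.94 in young hearts, and rose by 1.38 (adjusted p = 0.0327). Its other, dimmer probes differed by 0.37, 0.35 and 0.36, with overlapping groups and no call (adjusted p = 0.332, 0.398 and 0.554 in limma). Pdlim5, a Z-disc adaptor, was at 11.86, 12.11, 11.62 and 11.02 in aged hearts, against 10.83, 10.997, 10.66 and 10.67 in young hearts, and did not pass (adjusted p = 0.0722). Of 18 measured skeletal isoforms and myogenic cofactors, 2 were called, Myl1 and Vgll2, and the median difference was 0.13. Over all genes, each by its brightest probe, 0.795% were called, 0.569% higher and 0.226% lower, and the median was -0.01. Of 13 thick filament genes none was called in limma and 2 were lower at an unadjusted p below 0.05; the median of -0.15 became -0.03 without aged replicate 1. Of 24 thin filament and Z-disc genes none was called, 3 were higher and 1 lower at that level, and the median of -0.04 became 0.06 without aged replicate 1. Popdc3, Rcan2 and Calr3 passed with 1 heart left out only where it was aged replicate 4 (adjusted p otherwise up to 0.118, without young replicate 1), and Myl1 was lost without aged replicate 2 or young replicates 1, 2 or 3 (up to 0.0911).

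Genes of excitation changed in both directions. Scn4b, the beta 4 subunit of the sodium channel, was at 9.99, 8.74, 9.21 and 10.12 in aged hearts, against 8.03, 8.28, 8.15 and 8.38 in young hearts. Aged replicates 1 and 4 were highest, no aged heart overlapped the young ones, and Scn4b rose 2.48-fold (log2 difference 1.31, SE 0.25, adjusted p = 0.0298 in limma). Tmem38b, a cation channel of the sarcoplasmic reticulum, was at 9.34, 9.65, 9.55 and 9.51 in aged hearts, against 8.69, 8.77, 8.65 and 8.67 in young hearts. It rose 1.76-fold (adjusted p = 0.00265), and its second probe was called at 0.57. Kcnc1, a fast voltage-gated potassium channel, was at 4.95 to 5.55 in aged hearts and below the background limit in all young hearts, at least 1.27-fold higher (adjusted p = 0.00300). Its other probe, below the limit in all 8 hearts, differed by -0.01.

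On the lower side, Rnf207, a ubiquitin ligase known to affect cardiac repolarization, was at 8.31, 8.06, 8.10 and 8.09 in aged hearts, against 9.02, 8.92, 8.97 and 8.70 in young hearts. It fell by 0.76 (adjusted p = 0.00596) with no overlap. Kcne1, the beta subunit of a slow potassium current, was at 4.88, 7.39, 6.93 and 5.07 in aged hearts, against 8.23, 7.83, 7.65 and 7.60 in young hearts. The groups did not overlap but aged replicates 1 and 4 lay far below 2 and 3, and it did not pass (log2 difference -1.76, adjusted p = 0.0944). Tmem35a, a membrane protein that assists nicotinic receptor assembly, was at 5.38, 5.82, 5.31 and 5.12 in aged hearts, against 6.10, 6.39, 6.21 and 5.94 in young hearts, and fell by 0.75 (adjusted p = 0.0427). Over the lists, 1 of 24 potassium channels, Kcnk1, was called higher, in a list that does not hold Kcnc1. Of 15 genes of sodium and other ion transport Scn4b was called higher and Aqp1 lower. None of 23 calcium handling genes was called in limma, with 1 higher and 4 lower at an unadjusted p below 0.05. Scn4b and Tmem35a lost their calls without aged replicate 1 or any young replicate (adjusted p up to 0.126, without young replicate 3), and Tmem35a also without aged replicate 3.

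Cds1, Acsl6, Bdh1 and Acsm5, single enzymes of lipid and ketone handling, rose in aged hearts, while no gene was called among 33 of cholesterol and lipid synthesis (median -0.10) or 24 PPAR-alpha targets (median -0.03). In limma, 1 of the synthesis genes was higher and 5 lower at an unadjusted p below 0.05, and 3 of the PPAR-alpha targets were higher and 1 lower. Cds1 makes CDP-diacylglycerol, a precursor of phosphatidylinositol and cardiolipin. It was at 8.68, 8.96, 8.70 and 8.75 in aged hearts, against 7.24, 7.09, 7.24 and 7.66 in young hearts, a gap of more than 1 unit, and rose 2.76-fold (log2 difference 1.47, SE 0.14, adjusted p = 0.000421 in limma). Acsl6, a long-chain acyl-CoA synthetase, was at 9.12, 8.63, 9.01 and 8.81 in aged hearts, against 7.72, 7.65, 7.65 and 7.78 in young hearts. It rose 2.29-fold (adjusted p = 0.000664) on this probe, and its other 2 probes differed by -0.20 and 0.18. The probe at -0.20 was below the background limit in all 8 hearts. Bdh1, the mitochondrial 3-hydroxybutyrate dehydrogenase, was at 10.37, 9.73, 9.64 and 9.70 in aged hearts, against 8.62, 8.36, 8.75 and 9.11 in young hearts. It rose 2.22-fold (adjusted p = 0.0125), with aged replicate 1 highest. Its other probe, above the background limit in only 1 of the 8 hearts, differed by 0.16.

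Acsm5, a medium-chain acyl-CoA synthetase, was at 6.66, 6.23, 6.72 and 6.58 in aged hearts, against 4.82, 5.56, 5.03 and 4.99 in young hearts. It rose by 1.45 (adjusted p = 0.00446), and its second probe was called at 1.26. Mrps10, of the mitochondrial small ribosomal subunit, rose by 1.16 (adjusted p = 0.0170) and Cox18, which inserts a cytochrome oxidase subunit, by 0.75 (adjusted p = 0.0417). Atp5g2, which encodes the proton-carrying c subunit of ATP synthase, was at 11.17, 10.95, 10.84 and 10.87 in aged hearts, against 11.56, 11.48, 11.59 and 11.57 in young hearts. It fell by 0.60 (adjusted p = 0.0317), and all 4 aged hearts lay below the young. Slc25a47, a mitochondrial carrier, was at 6.06, 6.04, 5.85 and 6.32 in aged hearts, against 6.87, 7.0, 7.09 and 6.76 in young hearts, and fell by 0.86 (adjusted p = 0.00554).

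As lists, energy genes had medians near 0. Of 36 complex I genes none was called in limma, with 1 higher and 2 lower at an unadjusted p below 0.05, and the median was -0.02. Of 41 genes of complexes II to V, Atp5g2 was the only call and the median was -0.05. None of 28 genes of fatty acid uptake and oxidation was called, with 2 higher and 1 lower at an unadjusted p below 0.05 and a median of -0.05. The fasting and fatty acid responsive genes varied within both groups. Pdk4, which restrains glucose oxidation, was at 10.87, 10.84, 12.08 and 12.88 in aged hearts, against 11.82, 13.09, 11.19 and 11.78 in young hearts. Angptl4, an inhibitor of lipoprotein lipase, was at 8.29, 7.84, 9.62 and 10.24 in aged hearts, against 8.52, 10.37, 7.05 and 9.44 in young hearts. In both genes aged replicates 3 and 4 and young replicate 2 were high, the groups overlapped, and the adjusted p was 0.823 for Pdk4 and 0.947 for Angptl4. Cds1, Acsl6, Acsm5 and Slc25a47 passed without any 1 heart, Bdh1 was lost without young replicate 1 (adjusted p = 0.0546), and Mrps10, Cox18 and Atp5g2 were lost without young replicate 1, 2 or 3 and without other hearts (up to 0.131, without young replicate 1).

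Nqo1, Srxn1, Blvrb, Alad and Gsta2, single enzymes of quinone, sulphinic acid, haem and glutathione handling, rose in aged hearts. Nqo1, a quinone reductase and textbook target of Nrf2, was at 9.85, 9.57, 9.42 and 9.36 in aged hearts, against 8.72, 8.80, 8.81 and 8.83 in young hearts. The gap exceeded the whole range within either group, and Nqo1 rose 1.69-fold (log2 difference 0.76, SE 0.13, adjusted p = 0.0217 in limma). Its other probe, below the background limit in all 8 hearts, differed by 0.19. Srxn1, encoding sulfiredoxin, which restores peroxiredoxins, was at 7.65, 7.47, 7.29 and 7.63 in aged hearts, against 6.71, 6.75, 6.80 and 6.82 in young hearts. It rose 1.67-fold (adjusted p = 0.0172), and its other 2 probes differed by 0.21 and 0.25. Blvrb, a flavin and biliverdin reductase, was at 10.23, 9.66, 9.61 and 9.61 in aged hearts, against 8.91, 8.73, 8.94 and 9.13 in young hearts (adjusted p = 0.0401).

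Alad, an early enzyme of haem synthesis, was at 11.37, 11.56, 11.17 and 11.49 in aged hearts, against 10.31, 10.22, 10.36 and 10.51 in young hearts. It rose 2.07-fold (adjusted p = 0.0255). Gsta2, a glutathione transferase, rose by 0.75 (adjusted p = 0.0499). Hmox1, which degrades haem and is another textbook Nrf2 target, was at 5.70, 5.27, 5.11 and 5.88 in aged hearts, against 5.62, 5.49, 5.34 and 5.64 in young hearts, and was not called (log2 difference -0.03, adjusted p = 0.948); the sign of so small a difference turned in 4 alternative fits. Catalase (Cat) was at 9.59, 9.91, 8.41 and 10.52 in aged hearts, against 8.52, 8.43, 8.67 and 8.49 in young hearts, and aged replicate 3 alone lay within the young range (adjusted p = 0.182). Of 36 antioxidant and glutathione genes 1 was called, higher, and the median was 0.03. All 5 called genes of this group were lost without young replicate 1, 2 or 3 (adjusted p up to 0.166, without young replicate 1). Nqo1, Blvrb, Alad and Gsta2 were also lost without aged replicate 2, Blvrb, Alad and Gsta2 without aged replicate 1, and Blvrb and Gsta2 without young replicate 4. Blvrb was lost without aged replicate 3 too, and Gsta2 without aged replicate 4 (0.0547).

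Called genes often lay beside other called genes. Of the 137 called genes, 29 had another called gene within 250 kb in the RefSeq gene table, in 19 pairs of which 16 had the same direction. Of 850 comparisons of a called gene with a neighbour, 4.47% were with a called gene, while 1.0% of all 13702 genes with a position were called. The chemokines Ccl7, Ccl12 and Ccl8 and the antitrypsins Serpina1b and Serpina1d are duplicated families, in which a probe can catch a related transcript. Other neighbours are of unlike families. On chromosome 9 the sodium channel gene Scn4b lies beside the membrane serine proteases Tmprss4 and Tmprss13. Tmprss13 was at 8.43, 7.97, 7.76 and 6.80 in aged hearts, against 6.20, 6.23, 6.04 and 6.06 in young hearts (log2 difference 1.61, adjusted p = 0.0287 in limma). Tmprss4 was at 5.94, 5.46, 5.31 and 5.24 in aged hearts and below the background limit in all young hearts, at least 1.50-fold higher (adjusted p = 0.000664). A second Tmprss4 probe was called at 1.43, and a further probe differed by -0.14 with overlapping groups.

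On chromosome 4, Hdhd3, a phosphatase-like protein, lies beside Alad, and was at 7.38, 6.94, 6.83 and 6.93 in aged hearts, against 5.84, 5.41, 5.85 and 6.02 in young hearts. It rose 2.36-fold (adjusted p = 0.00446). Also on chromosome 4, the actin regulator Cap1 lies near Ppt1, a lysosomal thioesterase that rose by 0.86 (adjusted p = 0.0448). On chromosome 2, Fahd2a, Prom2 and Mal lie together and rose by 0.73, 1.44 and 1.13 (adjusted p = 0.0317, 0.00263 and 0.00446). On this probe Prom2 was below the background limit in young hearts and at least 1.29-fold higher. The other probes of Prom2 differed by 0.40 and -0.03 and that of Mal by 0.20, each with overlapping groups and no call. On chromosome 17, Gpatch11 lies beside the interferon-induced kinase gene Eif2ak2, and they rose by 1.11 and 0.76 (adjusted p = 0.0446 and 0.0307). Bdh1 and Apod on chromosome 16, and Nqo1 and the proteasome gene Psmd7 on chromosome 8, were further such pairs. The pairs that went opposite ways were Chil1 up beside Fmod down, Cd84 up beside Vangl2 down, and Maneal up beside Gnl2 down. Hdhd3, Tmprss4, Prom2 and Mal passed without any 1 heart; Tmprss13, Ppt1 and Gpatch11 passed only without aged replicate 4. Cap1 and Fahd2a were lost without aged replicate 2 or young replicate 1 or 2, and Fahd2a also without aged replicate 1 or young replicate 3 (adjusted p up to 0.148 over these genes, without young replicate 1).

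For 3 of these genes the spermidine-treated hearts, which share the young arrays as their baseline, were uneven. Cap1 was at 7.59, 8.58, 7.88 and 7.73 in aged hearts, at 4.09, 3.89, 4.09 and 7.55 in treated hearts and at 3.91, 4.39, 4.61 and 3.56 in young hearts. Alad was at 10.41, 10.44, 10.52 and 11.36 in treated hearts, beside the aged and young values above. Gpatch11 was at 6.58, 7.20, 7.02 and 6.65 in aged hearts, at 5.69, 5.77, 5.80 and 6.50 in treated hearts and at 5.82, 6.10, 5.94 and 5.15 in young hearts. In each, treated replicate 4 was the highest treated heart, and treated replicates 1 to 3 lay below every aged heart.

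Of 21 Fc and immune activation receptors, by which phagocytes sense antibody and other ligands, Fcgr3 was called higher and Cd300lb lower in aged hearts, with 18 higher, 3 lower and a median of 0.38. Of 26 genes of NF-kB and Toll-like signalling, Tlr7 and Tlr13 were called, both higher, and the median was 0.04. Fcgr3, a low-affinity receptor for immunoglobulin G, was at 7.80, 7.32, 7.05 and 7.46 in aged hearts, against 6.20, 6.35, 6.34 and 6.33 in young hearts. It rose 2.15-fold (log2 difference 1.10, SE 0.19, adjusted p = 0.0223 in limma). Tlr7, the endosomal sensor of single-stranded RNA, was at 5.88, 6.12, 6.01 and 6.10 in aged hearts, against 5.22, 5.15, 5.18 and 5.08 in young hearts. Both groups were tight and apart, and Tlr7 rose 1.83-fold (adjusted p = 0.00338). Tlr13, the mouse sensor of bacterial ribosomal RNA, was at 5.48, 5.67, 5.77 and 5.88 in aged hearts, against 5.15, 4.51, 4.82 and 4.32 in young hearts, of which 1 stood above the background limit (adjusted p = 0.0260).

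Casp1, the inflammasome protease, was at 8.30, 8.41, 8.75 and 8.42 in aged hearts, against 7.71, 7.82, 7.44 and 7.58 in young hearts (adjusted p = 0.0330). Skap2, an adaptor in myeloid adhesion signalling, was at 9.53, 9.67, 9.46 and 9.59 in aged hearts, against 8.17, 7.91, 8.45 and 8.97 in young hearts, and rose 2.28-fold (adjusted p = 0.00999). The ficolin Fcna, a soluble lectin of macrophages, was at 7.95, 8.50, 7.39 and 7.69 in aged hearts, against 6.24, 6.49, 6.34 and 7.19 in young hearts, and rose 2.49-fold (adjusted p = 0.0421). The immune receptors Cd84 and Slamf9 rose by 1.05 and 0.81, the cholesterol hydroxylase Ch25h by 0.77 and the complement chain C1qc by 0.72 (adjusted p = 0.0231, 0.0419, 0.0204 and 0.0421). Csprs, an Sp100-related gene of a repeated family, was at 7.65, 7.46, 8.01 and 8.48 in aged hearts, against 5.89, 5.97, 6.00 and 5.55 in young hearts (adjusted p = 0.000521). Its probe can catch related copies.

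By lists, 3 of 27 resident macrophage genes were called (Cd209b, Cd84 and C1qc), all higher, and 23 of 27 were higher at all. At an unadjusted p below 0.05, 12 were higher and 0 lower, beside 7.05% and 7.19% of all genes. Vsig4, a complement receptor of resident macrophages, was at 7.54, 9.06, 7.33 and 8.01 in aged hearts, against 6.81, 6.48, 6.83 and 6.65 in young hearts. The macrophage marker Adgre1 was at 6.64, 6.65, 6.35 and 7.02 in aged hearts, against 5.91, 5.91, 6.12 and 6.02 in young hearts. Neither overlapped and neither passed (adjusted p = 0.0598 and 0.0655). The macrophage median was 0.30 and became 0.47 without young replicate 4. Of 17 CC chemokines 3 were called, Ccl8, Ccl12 and Ccl7, all higher, with a median of 0.43, and of 11 CXC and CX3C chemokines none was called in limma, while 3 were higher at an unadjusted p below 0.05; their median of 0.48 was 0.31 without aged replicate 3.

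Lymphocyte lists had no call. Of 11 B cell, 20 T and NK cell and 6 immunoglobulin and plasma cell genes, 0 were called in limma, and 1, a T and NK cell gene on the lower side, passed an unadjusted p of 0.05. The T and NK score was highest in young replicate 4, at 0.71, against -0.30 to 0.30 elsewhere. Skap2, Tlr7 and Csprs passed without any 1 heart. Casp1 and C1qc passed only without aged replicate 4, and Fcgr3, Cd84, Ch25h, Slamf9, Fcna and Tlr13 were lost without young replicates 2 and 3 and without several others (adjusted p up to 0.144, without young replicate 1).

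**Figure D3:**
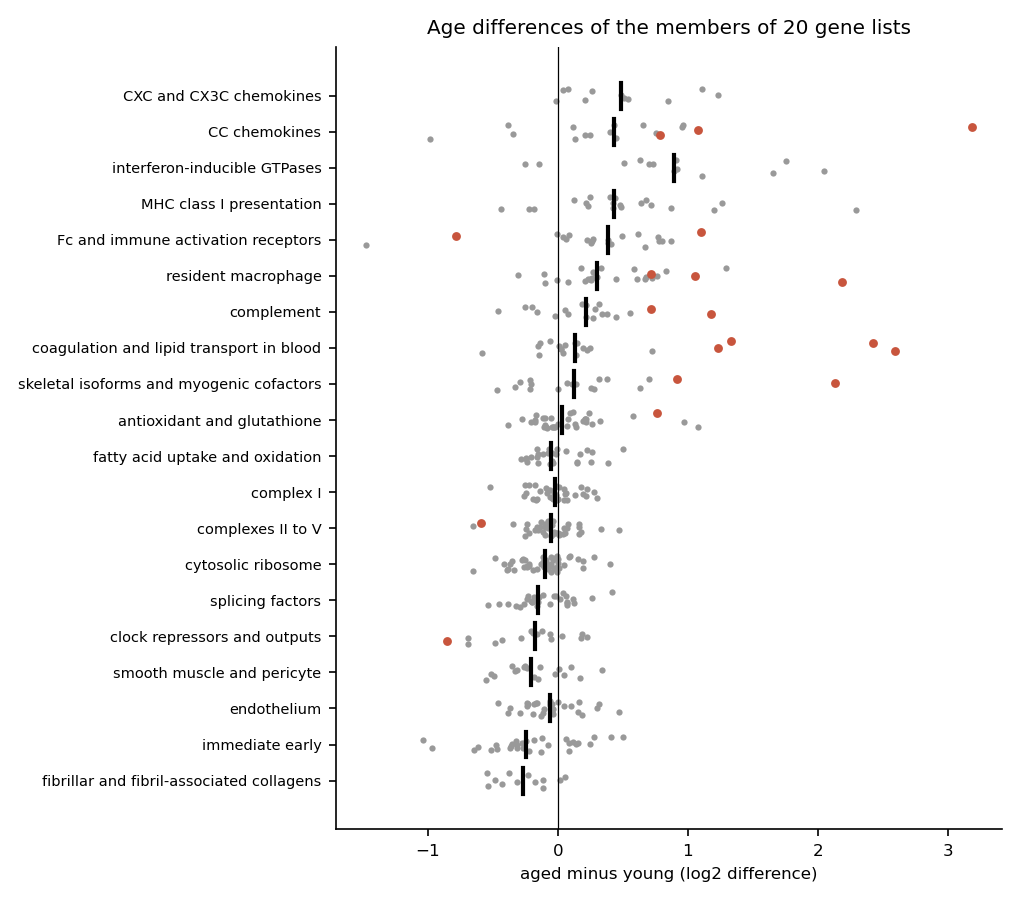
Each point is the aged minus young difference (log2, x axis) of 1 gene of the 20 lists named on the y axis, black ticks mark each list's median, and red points passed the threshold. Chemokine, interferon-inducible GTPase, MHC class I, Fc receptor and macrophage medians lie right of 0, at 0.30 to 0.89, and the collagen and immediate early medians lie left, at -0.27 and -0.24.

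Interferon-responsive genes divided the aged hearts. The 13 interferon-inducible GTPases, which attack vacuoles of intracellular microbes, had a median difference of 0.89, and 0 were called in limma while 8 were higher at an unadjusted p below 0.05. Their mean score was -0.44, -0.04, 0.91 and 1.33 in aged replicates 1 to 4, and -0.59, -0.30, -0.14 and -0.74 in young replicates 1 to 4. Aged replicates 3 and 4 were high, aged replicate 2 lay just above the young hearts, and aged replicate 1 lay among them. Igtp was at 8.77, 9.36, 12.00 and 13.52 in aged hearts, against 8.55, 9.21, 9.41 and 8.28 in young hearts (adjusted p = 0.292). Gbp10 was at 7.0, 6.75, 8.25 and 9.47 in aged hearts, against 6.20, 6.15, 6.30 and 5.80 in young hearts (adjusted p = 0.0962).

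The scores of MHC class I genes, at -0.22, 0.04, 0.59 and 0.62 in aged hearts and -0.34, -0.11, -0.23 and -0.35 in young hearts, had the same 2 aged hearts on top. For MHC class II genes aged replicate 3 was highest, at 0.86, and the median of 0.41 was 0.06 without it. By contrast, the macrophage score was 0.24, 0.26, 0.16 and 0.27 in aged hearts and -0.23, -0.36, -0.23 and -0.12 in young hearts, with all aged hearts above the young. Genes called in this group were Eif2ak2, the kinase that halts translation on double-stranded RNA, and Ido1, a tryptophan-degrading enzyme. Eif2ak2 was at 9.0, 8.78, 9.03 and 9.31 in aged hearts, against 8.34, 8.05, 8.38 and 8.30 in young hearts (log2 difference 0.76, adjusted p = 0.0307). Ido1 was at 6.01, 5.82, 6.75 and 7.08 in aged hearts, against 4.82, 5.11, 5.22 and 4.75 in young hearts (log2 difference 1.44, adjusted p = 0.0330), and 2 young hearts stood above the background limit. H2-T10, a non-classical class I gene, was at 7.74, 8.34, 6.70 and 8.08 in aged hearts, against 5.34, 5.38, 5.11 and 5.85 in young hearts, and did not pass (adjusted p = 0.128). Of 28 type I interferon-stimulated genes 1 was called, and their median of 0.14 was -0.09 without aged replicate 4. Eif2ak2 and Ido1 were lost without aged replicate 1 or 3 or any young replicate (adjusted p up to 0.115, without young replicate 1).

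**Figure D4:**
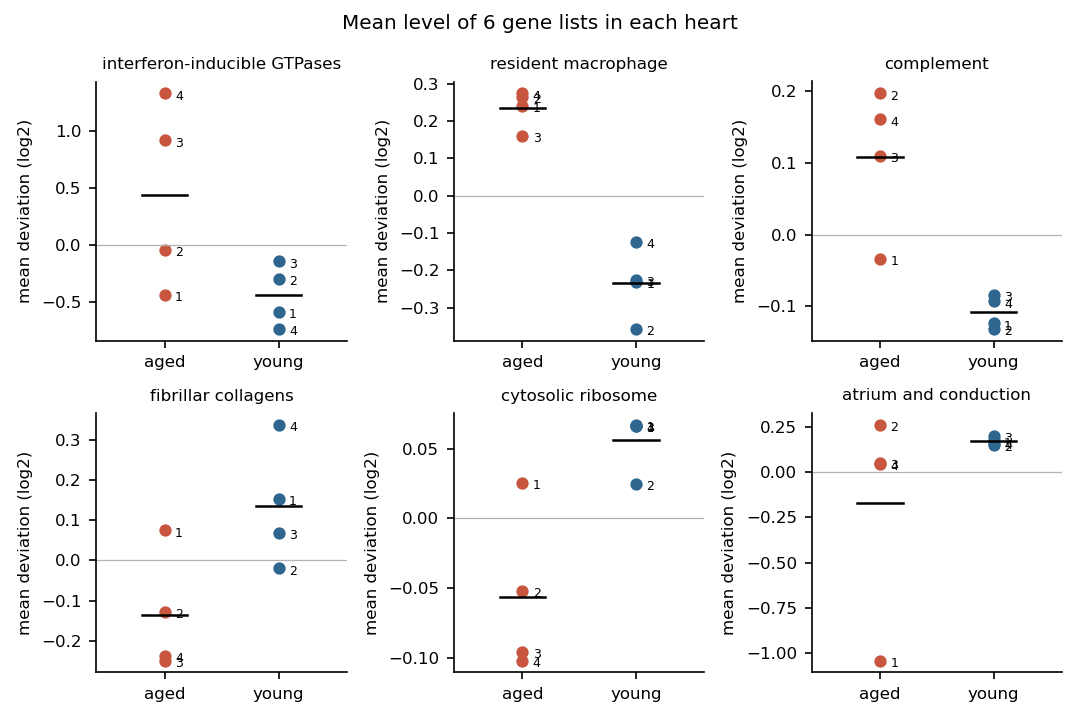
Each panel gives the mean deviation of a gene list from its mean over the 8 hearts (log2, y axis) in each aged heart (red) and young heart (blue), with replicate numbers beside the points and black lines at the group means. Macrophage and complement points of all 4 aged hearts lie above the young ones, the GTPase points are highest in aged replicates 3 and 4, and the atrial point of aged replicate 1 lies at -1.04.

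Of 27 neutrophil and acute phase genes, Chil1 and Lcn2 were called, both higher, and 18 were higher and 9 lower, with a median of 0.18. Other called secreted proteins are described with them. Serpina3n, an inhibitor of serine proteases made in inflammation, was at 7.15, 7.57, 7.83 and 8.10 in aged hearts, against 6.41, 6.52, 6.32 and 6.06 in young hearts. It rose 2.52-fold (log2 difference 1.33, SE 0.22, adjusted p = 0.0173 in limma). Apod, a lipocalin that binds small lipids, was at 8.14, 8.02, 7.74 and 6.81 in aged hearts, against 6.33, 6.67, 6.34 and 6.46 in young hearts, and aged replicate 4 lay just above the young range (adjusted p = 0.0459). C4b, a complement component, was at 8.04, 9.09, 9.05 and 9.20 in aged hearts, against 7.49, 7.73, 7.59 and 7.84 in young hearts, with aged replicate 1 lowest of the aged (adjusted p = 0.0414).

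Lcn2, an iron-sequestering lipocalin, was at 7.14, 7.14, 6.75 and 7.23 in aged hearts, against 5.67, 6.65, 5.97 and 5.61 in young hearts (adjusted p = 0.0446). Chil1, a chitinase-like protein of macrophages, was at 5.88, 6.51, 6.04 and 5.72 in aged hearts and below the background limit in all young hearts, at least 2.19-fold higher (adjusted p = 0.0166). Wfdc17, a macrophage-secreted protein, rose by 1.17 (adjusted p = 0.0446), and Vegfd, a growth factor for lymphatic vessels, by 0.67 (adjusted p = 0.0255). In the signalling below these, single called probes of the interleukin 6 branch went both ways. Stat3, its transcription factor, was at 8.63, 8.39, 8.55 and 8.79 in aged hearts, against 7.79, 7.97, 7.90 and 7.89 in young hearts, and rose 1.63-fold (adjusted p = 0.0287). The other Stat3 probes differed by 0.18 and 0.29, with overlapping groups and no call (adjusted p = 0.765 and 0.613 in limma). The receptor subunit Il6st fell by 1.24 (adjusted p = 0.0317), and the phosphatase Dusp10, which acts on stress kinases, was at 5.78, 5.92, 6.37 and 6.51 in aged hearts, against 6.81, 6.81, 7.07 and 6.95 in young hearts (adjusted p = 0.0448).

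Among 24 genes of the interleukin 6 family, JAK-STAT and SOCS, each by its brightest probe, Il6st was the only call and the median was 0.06. Only Ccl8 among the genes of this group passed without any 1 heart. Chil1 was lost without young replicate 3 (adjusted p = 0.0516), Serpina3n without young replicates 1, 3 or 4, and Apod, C4b, Wfdc17, Stat3, Il6st and Dusp10 without any 1 young replicate and without at least 2 of aged replicates 1 to 3. Vegfd was lost without aged replicates 2 or 3 or young replicates 1, 2 or 3, and the adjusted p of this group reached 0.148 without young replicate 1. Lcn2 was lost without every aged replicate and without young replicates 1, 3 and 4.

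The called endothelial and proteoglycan transcripts named here were lower in aged hearts. The water channel Aqp1, abundant in capillary endothelium, was at 11.03, 11.47, 11.71 and 11.67 in aged hearts, against 12.15, 12.30, 12.21 and 12.15 in young hearts. It fell by 0.73 (SE 0.15, adjusted p = 0.0381 in limma) with no overlap, and its other 2 probes differed by -0.68 and -0.61 without passing. Slco2a1, a prostaglandin transporter of endothelium, was at 5.52, 5.55, 5.61 and 5.64 in aged hearts, against 6.18, 6.15, 6.21 and 6.25 in young hearts, with both groups tight and apart, and fell by 0.61 (adjusted p = 0.0179). Tspan18, an endothelial tetraspanin, was at 5.12, 4.78, 5.34 and 4.95 in aged hearts, against 6.04, 5.78, 5.98 and 6.09 in young hearts (log2 difference -0.92, adjusted p = 0.00596). Its other, brighter probe differed by -0.43, with overlapping groups and no call (adjusted p = 0.315 in limma). The apelin receptor Aplnr was at 7.57, 7.20, 6.65 and 6.89 in aged hearts, against 8.83, 8.14, 8.34 and 8.07 in young hearts, and did not pass (adjusted p = 0.0617). Ly6c1, another endothelial surface protein, was at 11.74, 11.58, 11.70 and 11.73 in aged hearts, against 11.14, 11.24, 11.25 and 11.22 in young hearts (log2 difference 0.47, adjusted p = 0.0546).

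In the matrix, the proteoglycan Gpc3 was at 6.66, 7.14, 7.17 and 7.06 in aged hearts, against 7.75, 7.59, 7.88 and 7.89 in young hearts, and fell by 0.77 (adjusted p = 0.0320). Fibromodulin (Fmod), which binds collagen fibrils, was at 5.56, 5.19, 4.97 and 5.31 in aged hearts, against 5.95, 5.81, 6.24 and 5.99 in young hearts, and fell by 0.74 (adjusted p = 0.0398). Of 12 fibrillar and fibril-associated collagen genes, 10 were lower and 2 higher, with a median of -0.27. None was called in limma, and 4 were lower at an unadjusted p below 0.05. Col1a1 was at 8.67, 8.43, 8.23 and 8.74 in aged hearts, against 9.07, 8.89, 8.69 and 9.33 in young hearts, and aged replicate 4 overlapped the young (adjusted p = 0.196). Ltbp1, which stores latent TGF-beta in the matrix, was at 5.99, 6.46, 6.85 and 6.65 in aged hearts, against 7.21, 7.30, 7.36 and 7.36 in young hearts (adjusted p = 0.0624), and its relatives Ltbp4 and Ltbp3 differed by -0.52 and -0.49.

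Of 30 endothelial genes none was called in limma, with 2 higher and 2 lower at an unadjusted p below 0.05 and a median of -0.06. Of 18 smooth muscle and pericyte genes 0 were called and 4 were lower at that level; their median of -0.21 was -0.06 without aged replicate 4. Smtn, a smooth muscle cytoskeletal protein, was at 11.25, 11.18, 11.22 and 11.19 in aged hearts on its probe with the smallest p, against 11.73, 11.71, 11.57 and 11.58 in young hearts (adjusted p = 0.0624). Tspan18 passed without any 1 heart, and Aqp1, Gpc3, Fmod and Slco2a1 were lost without any young replicate (adjusted p up to 0.128, without young replicate 3). Aqp1 and Gpc3 were also lost without aged replicate 1 or 2, and Fmod without aged replicate 2 or 3.

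Of 7 called genes for protein import, processing and removal, picked here for their roles, 6 fell on the called probe. Among all called genes 90 rose and 47 fell. For Timm9 and Mff the brightest probe did not fall. Srpr, the receptor that docks ribosomes at the endoplasmic reticulum, was at 6.50, 7.72, 7.63 and 8.10 in aged hearts, against 9.08, 8.71, 9.18 and 9.0 in young hearts (log2 difference -1.50, adjusted p = 0.0381 in limma). Ddost, of the complex that attaches N-glycans, was at 7.51, 7.10, 7.27 and 7.58 in aged hearts, against 7.97, 8.17, 7.98 and 7.84 in young hearts, and fell by 0.63 (adjusted p = 0.0447). Psmb5, which carries the chymotrypsin-like site of the proteasome, was at 8.71, 8.35, 8.38 and 8.87 in aged hearts, against 9.57, 9.38, 9.53 and 9.49 in young hearts. It fell by 0.92 (adjusted p = 0.0255) with no overlap. Cops8, a subunit of the COP9 signalosome, which regulates cullin ubiquitin ligases, was at 9.61, 9.19, 9.43 and 9.33 in aged hearts, against 10.29, 10.44, 10.31 and 10.21 in young hearts (log2 difference -0.92, adjusted p = 0.0366).

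The mitochondrial import chaperone Timm9 fell by 0.98 (adjusted p = 0.0381) on the called probe, while its other 3 probes lay between -1.0 and 0.65. Its brightest probe, with means of 10.44 in aged and 10.36 in young hearts, differed by 0.07. The probe at 0.65 was below the background limit in all 8 hearts. Mff, which recruits the fission machinery to mitochondria, was at 7.13, 7.13, 6.85 and 7.09 in aged hearts, against 8.04, 7.83, 8.17 and 7.95 in young hearts (adjusted p = 0.0408). Its other, brighter probe, with means of 9.41 in aged and 9.0 in young hearts, differed by 0.41 (adjusted p = 0.219 in limma). The proteasome lid subunit Psmd7 rose by 0.70 (adjusted p = 0.0446), while its other, slightly brighter probe differed by 0.13 (adjusted p = 0.635). Of 33 genes of the proteasome and muscle ubiquitin ligases, Psmb5 was the only call, and the median was 0.03. Hsp90b1, the chaperone of the endoplasmic reticulum, was at 10.58, 10.93, 11.18 and 10.96 in aged hearts, against 11.43, 11.78, 11.63 and 11.36 in young hearts, and did not pass (adjusted p = 0.0686).

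Transcripts of the cytosolic ribosome were a little lower: of 53 genes, 43 were lower and 10 higher, with a median of -0.10. Over all 13708 genes, 7180 were lower and 6527 higher. None was called in limma, 13 were lower and 2 higher at an unadjusted p below 0.05, and for 15 all aged hearts lay below all young ones, beside 4.25% of all genes. Rps25 was at 10.55, 10.60, 10.80 and 10.48 in aged hearts, against 11.06, 10.91, 11.18 and 11.23 in young hearts (log2 difference -0.49, adjusted p = 0.124). Rpl29 was at 10.12, 9.12, 9.24 and 10.06 in aged hearts, against 10.32, 10.37, 10.21 and 10.26 in young hearts (adjusted p = 0.183), with aged replicates 2 and 3 low. Srpr, Ddost, Psmd7, Cops8 and Mff passed only when aged replicate 4 or no heart was left out, and Psmb5 and Timm9 were lost without aged replicate 3 or any 1 young replicate (adjusted p up to 0.133, without young replicate 1). Psmb5 was also lost without aged replicate 2.

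The clock repressor Nr1d1 fell in aged hearts, and genes induced by acute stimuli had lower medians. Nr1d1, the nuclear receptor that represses Bmal1 and follows the time of day, was at 8.76, 8.19, 8.69 and 8.86 in aged hearts, against 9.67, 9.79, 9.39 and 9.07 in young hearts. It fell by 0.85 (SE 0.18, adjusted p = 0.0446 in limma), and its second probe was called at -0.83. The clock output Dbp was at 8.59, 8.67, 9.29 and 9.41 in aged hearts, against 9.85, 9.69, 9.79 and 9.41 in young hearts, and Nr1d2 was at 6.10, 6.16, 6.97 and 7.72 in aged hearts, against 7.42, 7.47, 7.51 and 7.31 in young hearts. In both, aged replicates 1 and 2 were lowest, aged replicate 4 was close to the young hearts, and neither passed (adjusted p = 0.319 and 0.333). Of 16 clock repressors and outputs Nr1d1 was the only call, and the median of -0.18 was -0.09 without young replicate 4. The time of collection was not given, so its part was not tested.

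Of 31 immediate early genes, which respond within minutes to stimulation or tissue handling, none was called in limma and 8 were lower and 0 higher at an unadjusted p below 0.05, with a median of -0.24. Dusp1 was at 10.37, 10.61, 10.41 and 10.39 in aged hearts, against 10.84, 10.79, 11.37 and 11.23 in young hearts (adjusted p = 0.0640). Fos was at 5.25, 6.31, 5.99 and 5.67 in aged hearts, against 6.62, 6.07, 7.70 and 6.99 in young hearts (adjusted p = 0.142). Young replicate 3 was highest for both. In the cell cycle, Mcm6, of the replicative helicase, was at 6.06, 6.04, 6.29 and 6.60 in aged hearts, against 6.89, 6.71, 7.03 and 7.14 in young hearts, and fell by 0.70 (adjusted p = 0.0478), with -0.64 and -0.60 on its other probes. Ccng2, a cyclin that holds cells out of the cycle, fell by 1.31 (adjusted p = 0.0421). These were the 2 calls among 31 cell cycle and replication genes, and none of 27 senescence and p53 genes was called in limma, with 4 higher and 2 lower at an unadjusted p below 0.05. Mcm6 passed only without aged replicate 4, Nr1d1 without aged replicate 4 or young replicate 4, and Ccng2 was lost without aged replicate 3 or young replicates 1 to 4 (adjusted p up to 0.148, without young replicate 1).

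Regulators of kinase and nutrient signalling were a further group of called genes. Snrk, a kinase related to AMPK, was at 8.39, 8.20, 8.38 and 7.68 in aged hearts, against 7.02, 7.48, 7.12 and 6.91 in young hearts. It rose 2.04-fold (log2 difference 1.03, SE 0.18, adjusted p = 0.0199 in limma), and its other probes differed by 0.28 and 0.46. Stradb, a pseudokinase partner of LKB1, which activates AMPK and its relatives, was at 8.16, 8.52, 8.26 and 8.25 in aged hearts, against 7.72, 7.71, 7.61 and 7.65 in young hearts, with 0.62 on this probe and 0.36 on the other (adjusted p = 0.0255). Rragd, a Rag GTPase that signals amino acid supply to mTORC1 at the lysosome, was at 8.49, 8.45, 8.53 and 8.47 in aged hearts, against 7.87, 7.93, 8.04 and 7.82 in young hearts (log2 difference 0.57, adjusted p = 0.0255). In all 3 genes the groups were apart.

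Slc46a3, a lysosomal membrane transporter, was at 9.12, 9.74, 9.67 and 10.01 in aged hearts, against 8.71, 8.77, 8.78 and 8.79 in young hearts, and rose 1.83-fold (adjusted p = 0.0278). Prkcq, a protein kinase C of T cells and skeletal muscle, rose by 0.78 (adjusted p = 0.0255). Rnase4, a secreted ribonuclease, rose by 0.70 (adjusted p = 0.0287), and Adi1, of the methionine salvage pathway that recycles a by-product of polyamine synthesis, by 0.64 (adjusted p = 0.0499). Rasl10a, a Ras-like GTPase, was at 6.93, 6.54, 5.85 and 6.28 in aged hearts, against 4.77, 4.98, 4.72 and 4.75 in young hearts, of which 1 stood above the background limit (adjusted p = 0.00300). On the lower side Tab1, which activates the kinase TAK1, was at 7.90, 7.37, 7.65 and 7.74 in aged hearts, against 8.32, 8.49, 8.19 and 8.14 in young hearts, and fell by 0.62 (adjusted p = 0.0457). Its other 3 probes lay between -0.47 and -0.18. Arhgef1 fell by 0.70 (adjusted p = 0.0287). Rasl10a passed without any 1 heart. Each of the other 9 genes kept its call without aged replicate 4 and lost it without at least 5 of the other 7 hearts (adjusted p up to 0.148, without young replicate 1).

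Called genes of vesicle traffic, the cytoskeleton and neurotransmitter synthesis, grouped here for their known roles, went in both directions. Sh3gl2, encoding endophilin A1, which shapes endocytic vesicles, was at 8.94, 8.10, 8.07 and 6.99 in aged hearts, against 5.67, 6.18, 6.35 and 6.55 in young hearts. It rose 3.57-fold (log2 difference 1.84, SE 0.33, adjusted p = 0.0255 in limma), with 0.48 and 0.73 on its other probes. Amphiphysin (Amph), its partner in endocytosis, was at 6.01, 5.99, 5.77 and 5.53 in aged hearts, against 5.30, 4.98, 5.18 and 4.95 in young hearts, and rose 1.65-fold (adjusted p = 0.0287). Prkcz, an atypical protein kinase C of cell polarity, was at 6.69, 6.61, 6.79 and 6.36 in aged hearts, against 5.59, 5.24, 5.65 and 5.74 in young hearts, and both of its probes were called (log2 difference 1.06 and 0.84). Arhgap35 was at 7.61, 7.37, 7.52 and 7.52 in aged hearts, against 5.84, 5.58, 5.67 and 5.30 in young hearts (adjusted p = 0.0319). Its other probe, above the background limit in only 1 of the 8 hearts, differed by 0.16.

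Kinesin light chain 1 (Klc1), which links cargo to microtubule motors, was at 6.01, 6.39, 6.31 and 6.58 in aged hearts, against 7.12, 7.07, 6.88 and 6.98 in young hearts. It fell by 0.69 (adjusted p = 0.0287), and its other 4 probes lay between -1.57 and -0.45 without passing. The alpha tubulin Tuba4a was at 8.13, 8.20, 7.87 and 7.93 in aged hearts, against 8.59, 8.93, 8.71 and 8.60 in young hearts, and fell by 0.67 (adjusted p = 0.0396). Doc2g, a C2-domain protein related to regulators of exocytosis, fell by 0.74 (adjusted p = 0.0287), and Ddc, which makes dopamine and serotonin, by 1.17 (adjusted p = 0.0204). Of 11 Schwann cell and neuron genes none was called in limma, and 2 were higher at an unadjusted p below 0.05. Prkcz passed without any 1 heart; Amph, Arhgap35, Klc1, Doc2g and Tuba4a passed only without aged replicate 4. Sh3gl2 and Ddc were lost without aged replicate 1 or young replicates 1, 2 or 3, and Sh3gl2 also without aged replicate 2 or 3 (adjusted p up to 0.120, without young replicate 2).

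**Figure D5:**
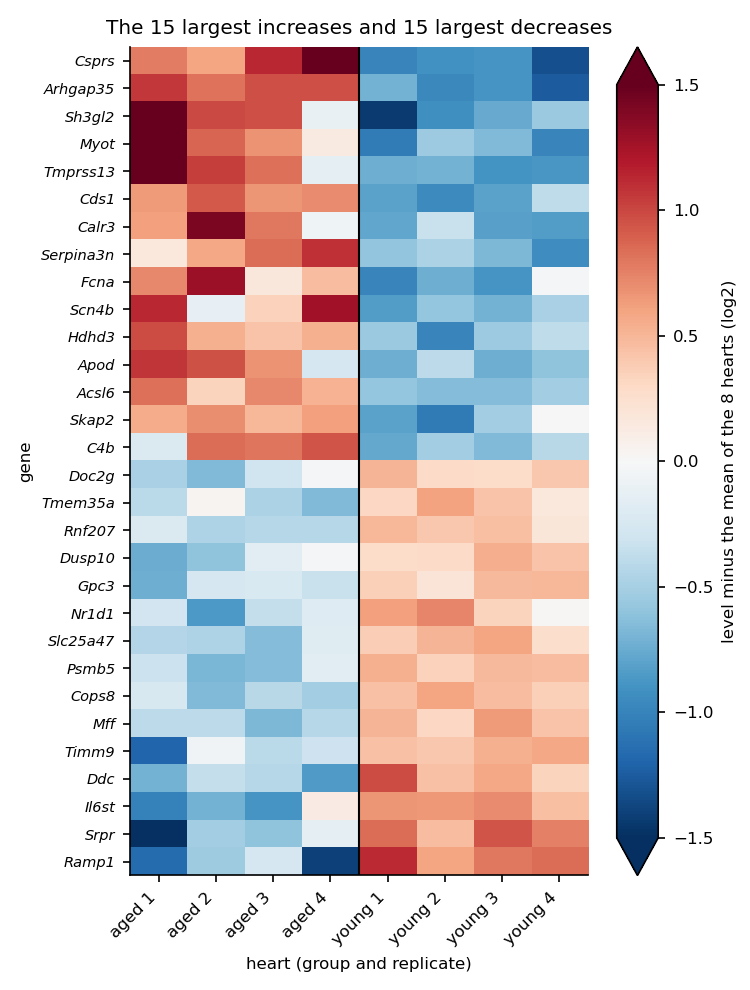
Colours give the level of each gene (y axis) minus its mean over the 8 hearts (log2) in each heart (x axis, 4 aged hearts left of 4 young hearts), for the 15 largest increases and 15 largest decreases among called genes above the background limit on all 8 arrays. Aged replicate 4 is the palest aged heart for Sh3gl2, Tmprss13, Calr3, Apod and Il6st, and young replicate 4 is near 0 for Fcna, Skap2 and Nr1d1.

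Few differences passed among bright transcripts, as at every level. Of 721 probes with a mean of 11 or more, 1 was called higher (Myl1) and 2 lower (Aqp1 and Atp5g2). These were 0.416% of such probes, beside 0.797% of all kept probes. The share was 0.278% at levels under 5, 1.44% at 5 to 7, 1.12% at 7 to 9 and 1.01% at 9 to 11. The next smallest p on the higher side belonged to Ly6c1, Ppm1a, Nudt7 and Pdlim5. Ppm1a, a phosphatase that ends stress and Smad signalling, was at 11.82, 11.86, 11.70 and 11.66 in aged hearts, against 11.39, 11.29, 11.33 and 11.25 in young hearts (adjusted p = 0.0624). Nudt7, a peroxisomal CoA hydrolase, was at 11.82, 11.62, 11.61 and 11.28 in aged hearts, against 11.08, 10.89, 11.03 and 11.06 in young hearts (adjusted p = 0.0640). On the lower side Mlf1, a myeloid leukaemia factor, was at 11.51, 11.41, 11.24 and 10.92 in aged hearts, against 11.94, 11.64, 11.91 and 11.82 in young hearts (adjusted p = 0.106). In these 3 genes the groups did not overlap.

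Several genes often read as markers of cardiac stress and ageing did not pass. The metallothionein Mt1 was at 12.91 to 13.45 in aged hearts and 13.16 to 13.38 in young hearts (adjusted p = 0.676). Ccn2, a matricellular protein of fibrosis, was at 11.42, 12.27, 11.73 and 12.63 in aged hearts, against 11.93, 11.67, 11.79 and 11.91 in young hearts (adjusted p = 0.773). The cell cycle inhibitor Cdkn1a was at 9.29, 8.82, 9.07 and 8.59 in aged hearts, against 7.72, 8.69, 7.99 and 8.75 in young hearts (adjusted p = 0.261). Gpnmb, a glycoprotein of lipid-laden macrophages, was at 7.43, 7.03, 6.54 and 6.66 in aged hearts, against 6.18, 6.13, 6.04 and 6.33 in young hearts, without overlap (adjusted p = 0.197). Lgals3, Igf1, Txnip, Ucp3, Mt2, Hspa1a and Tgfb2 had overlapping groups and an adjusted p of 0.286 or more. Of 15 polyamine genes none was called in limma, with 1 higher and 1 lower at an unadjusted p below 0.05 and a median of 0.02. Likewise none of 16 intercalated disc genes was called, 13 of them lower, with 2 lower at an unadjusted p below 0.05; their median of -0.17 ranged between -0.25 with aged replicate 4 left out and -0.10 with aged replicate 1 left out.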

How the data were processed

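Each array measured biotin-labelled RNA from heart on Illumina beads, per the labels' protocols. The authors deposited 2 tables of linear intensity for 25697 probes. The table used here, deposited as not normalized, held 24.1% of values below 0, so background had been subtracted by a method not named in the labels. The submitters' normalized table served as an alternative. The intensities were quantile normalized and log2 of intensity plus 16 was taken here, which understates differences of dim probes. The planned normexp step needs detection p-values or control probes and was not run. Probes above the 25th percentile on at least 4 of 12 arrays were kept (20573, 80.1%, naming 13708 genes). Names came from the platform annotation and a RefSeq table of GRCm38.p6 (23978 probes with 1 symbol, 1719 unnamed). The background limit was 3 SDs of the values below 0 mirrored about 0 (13.2 to 15.8 intensity units, with 11689 to 12337 probes above it per array), and mean intensity was 259 to 313. Where a probe was below it on all arrays of the dimmer group, "at least" folds set the brighter mean against, per array, the probe's own signal or, where that is lower, the lowest one above the limit. Precision is set by the number of arrays.

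One limma model (limma 3.58.1, R 4.3.3) of 3 group means over 12 arrays, with 9 residual degrees of freedom, gave each adjusted p, two-sided. The code was also run on simulated data in which every group had the spread of the young hearts. That run cannot show how the wider spread of aged hearts affects the calls. For lists each gene was taken by its brightest probe. A list's score in a heart is the mean deviation of its genes from their means over the 8 aged and young arrays. Genes named are the 15 largest increases and 15 largest decreases among called probes above the limit on all 8 arrays, up to 4 members of each list described, the 5 smallest p in each direction among probes with a mean of at least 11, a fixed panel, and called genes grouped by function. Of the panel, Spp1, Gdf15 and Postn had no kept probe named here and are not analysed. The members and lists were chosen with earlier results of these data known. Alternatives were other normalizations, offsets, filters, weights and priors, the 8 arrays alone, a replicate block, and leaving out each heart.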

Additional observations from a re-analysis of the deposited data

Results flagged for a closer look

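In 9 of 236 groups of 4 hearts, over the genes described, the highest or lowest heart lay further from the others than Dixon's 95% critical value for 4 values allows, where chance gives about 1 in 20. Aged replicate 1 was the outlying heart in 4 of them. It was highest for Rnf207 at 8.31, where the other aged hearts lay at 8.06 to 8.10, for Bdh1 at 10.37, against 9.64 to 9.73, and for Blvrb at 10.23, against 9.61 to 9.66, and lowest for C4b at 8.04, against 9.05 to 9.20. Aged replicate 3 was lowest for Mff at 6.85, against 7.09 to 7.13, and aged replicate 2 was highest for Dusp1 at 10.61, against 10.37 to 10.41. Among young hearts, replicate 3 was highest for Ccl8 at 5.49, against 4.88 to 4.98, replicate 2 was highest for Calr3 at 7.45, against 6.94 to 7.0, and replicate 1 was lowest for Fcgr3 at 6.20, against 6.33 to 6.35. None of these hearts fell within the range of the other age group.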

How the results depend on the processing

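Every one of the 164 called probes kept its direction under each alternative that tested it, while their number depended on the settings. The total was 299 in the submitters' normalized table (193 higher, 106 lower), 89 with an offset of 1 (68, 21), 373 with an offset of 64 (207, 166), 90 with no filter (69, 21) and 331 among probes above the background limit on at least 4 arrays (202, 129). It was 97 from the 8 aged and young arrays alone (72, 25), 372 with array weights (237, 135) and 337 with an intensity trend and robust prior (213, 124). It was 70 without the 2 arrays with airway transcripts (58, 12) and 50 without those and aged replicate 1 (46, 4), 2 settings chosen after the data had been seen. With the replicate block it was 96 (76, 20). Same-numbered hearts had deviations that correlated at 0.023, 0.022, -0.0009 and -0.0009, beside -0.073 to 0.107 for unlike-numbered hearts. Such correlations cannot show whether a number marks a shared litter or day. The labels do not say so, and no pairing was used. Leaving out 1 heart gave 41 to 559 in all, 35 to 339 higher and 5 to 220 lower, with the highest without aged replicate 4. Median shift and cyclic loess kept the total within 1.5 times, and the wider spread of aged hearts remained under the submitters' table and the stricter filters. Hmox1, at -0.03, turned to 0.039 without aged replicate 2, 0.092 without aged replicate 3, and 0.0058 without young replicate 4 or without the 2 airway arrays, within a range of -0.165 to 0.0923 over the hearts left out. The causes were not tested. On each array 45.5% to 48.0% of probes passed the background limit, and levels below it have no order.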

Other observations

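A group of genes on chromosome 6 was split across hearts in a way that age did not follow, and the genes were picked after their values had been seen. Sspn, which encodes sarcospan of the dystrophin complex of muscle membranes, was at 2.79, 4.25, 11.75 and 11.40 in aged hearts, at 12.41, 11.40, 12.20 and 3.54 in treated hearts, and at 12.52, 12.49, 12.58 and 12.25 in young hearts. Its probe was near or below the background limit in aged replicates 1 and 2 and in treated replicate 4, and bright in the other 9 hearts. The aged minus young difference of Sspn, -4.91, did not pass (adjusted p = 0.315 in limma). A probe for Fgfr1op2 was at 4.59, 4.82, 7.85 and 8.13 in aged hearts, at 8.63, 8.05, 8.97 and 5.52 in treated hearts, and at 8.85, 9.09, 8.99 and 9.01 in young hearts. A probe for Abcc9, a subunit of the ATP-sensitive potassium channel, was at 4.09, 3.71, 6.56 and 7.01 in aged hearts, at 7.49, 6.22, 7.07 and 3.78 in treated hearts, and at 7.19, 6.83, 7.11 and 7.33 in young hearts, while a brighter Abcc9 probe lay between 9.23 and 9.88 in all 12. Casc1 and Cmas, on the same chromosome, had the same 3 hearts lowest, at 3.43, 3.81 and 3.54 for Casc1 and at 7.65, 7.63 and 7.73 for Cmas, and no other heart was below 4.68 for Casc1 or 8.42 for Cmas. Over all chromosomes, these 3 hearts lay more than 0.2 above or below every other heart for 22 named probes, 8 of them on chromosome 6, all below, and at most 2 on any other chromosome. The labels give 1 strain for all mice, and the cause was not tested.

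Beside these, the red blood cell list had a median difference of 0.38 over 6 genes with 0 called in limma and 2 higher at an unadjusted p below 0.05. Its score was -0.19, 0.27, 0.39 and 0.44 in aged hearts, against -0.51, -0.62, 0.11 and 0.10 in young hearts. The mesothelium and epicardium list had a median of -0.46, which was -0.21 without aged replicate 1.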
